A study of Bubalus bubalis with 36 samples.

Results

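The miR-379 to miR-656 cluster is a long run of microRNA (miRNA) genes in the imprinted DLK1-DIO3 domain, and its members were followed here across 6 fat depots of the buffalo (Bubalus bubalis). Members were taken by name alone: every row of the count table that carried a bovine miRNA name with 1 of 34 numbers of the cluster, with any letter or arm suffix. 31 of the 34 numbers matched, which gave 47 members among 1682 rows. 32 members passed the filter on low counts and could be tested, among 667 features in all, and the other 15 are accounted for by their levels.

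Small RNA was sequenced from adipose tissue of 6 animals, each sampled at the same 6 sites, so 36 libraries were available, with 6 per depot. The subcutaneous depots were back (BSAT), sternal (SSAT) and inguinal fat (IAT), while omental (OAT), pericardial (PCAT) and perirenal fat (PRAT) made up the visceral class, so each class held 18 libraries. All animals shared 1 rearing scheme, with weaning at 3 months, fattening from 15 months and slaughter at 20 months, and the labels give no further treatment. The comparisons were therefore between depots of the same animals, and the design names the class comparison and the spread over the 6 depots. The main fits held no term for the animal, so their p-values are not paired, and a block for the animal was an alternative.

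In mammals the miRNAs of this cluster are processed from long noncoding transcripts of the maternally inherited chromosome, while the protein-coding genes of the domain, among them DLK1 and RTL1, are read from the paternal one. DLK1 is a membrane protein of preadipocytes that holds back adipocyte differentiation, and MEG3 and MEG8 are maternal noncoding RNAs of the same domain. Because the miRNAs are cut from shared precursors, their levels often move together, although each is processed and degraded on its own. In the RefSeq annotation of assembly NDDB_SH_1, DLK1, RTL1 and DIO3 lay on 1 chromosome, with 4 protein-coding and 6 long noncoding RNA genes between DLK1 and DIO3, RTL1 included.

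Library totals ran from 9484589 to 13920998 counts with a median of 12525362, and the members together took 5241 to 47433 of them. The markers listed for adipose tissue (miR-148a, miR-378, miR-193b, miR-365, miR-26a and miR-30a, in 7 rows) were read in every depot, and their summed level ran from 11260 to 143400 CPM (counts scaled to a common library total). Muscle markers stood out in 1 back library (2949 CPM, animal 2) and 1 perirenal library (1296 CPM, animal 6), and epithelial markers in 1 perirenal library (2816 CPM, animal 2). Leukocyte marker sums were highest in the omental (48297 CPM) and inguinal library (28125 CPM) of animal 6. The perirenal library of animal 3 (27363 CPM) and the omental library of animal 2 (20249 CPM) came next, beside a median of 6310 CPM over all libraries. The library names close with A or B, and what this letter stands for is not stated: 8 libraries carried A, 3 of them perirenal, 2 omental, 2 pericardial and 1 from the back, while all sternal and inguinal libraries carried B. In whole tissue, fewer cells of a type and less RNA per cell cannot be told apart.

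The cluster was read from mostly 1 miRNA. miR-411a averaged 1306 CPM and gave 73.4% of all member counts. miR-379, the member that names one end of the cluster and is known as a glucocorticoid-induced regulator of lipid secretion in liver, followed with 146 CPM. miR-154b (60.8 CPM), the 5p arm of miR-411c (56.3 CPM), miR-485 (37.3 CPM) and miR-381 (24.3 CPM) came next, and 10 members reached a mean of 10 CPM. Members whose names differ by letter alone, such as miR-411a and miR-411b or those of the miR-376 family, can share reads, and how such reads were assigned is not given in the sources used here. The 15 untested members were read at 0.0025 to 0.404 CPM, from miR-656, the other named end, seen in 1 library, to miR-376a, seen in all 36. The rule for which members get values is given with the data processing. miR-656, miR-376a and the members described further on that this rule does not cover were chosen for description after their values were seen.

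Summed over all 47 members, the level was lowest in sternal and highest in pericardial fat. It was 856 ± 315 CPM in sternal, 1204 ± 462 in back, 1571 ± 612 in perirenal, 1951 ± 863 in omental, 2124 ± 744 in inguinal and 2947 ± 178 CPM in pericardial fat (SD, n = 6 each). The 6 pericardial libraries lay within 2701 and 3179 CPM, all above the sternal libraries, which lay within 493 and 1155 CPM. The order of the depots in between did not exceed their spread: inguinal fat alone spanned 844 to 2896 CPM and omental fat 937 to 3423 CPM. Pericardial fat was the highest depot in 5 of 6 animals, the exception being animal 3, where omental fat was higher. Sternal fat was the lowest depot in 3 animals, and the pericardial level was 2.53 to 6.01 times the sternal one within an animal. No test was made of this sum.

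**Figure D1:**
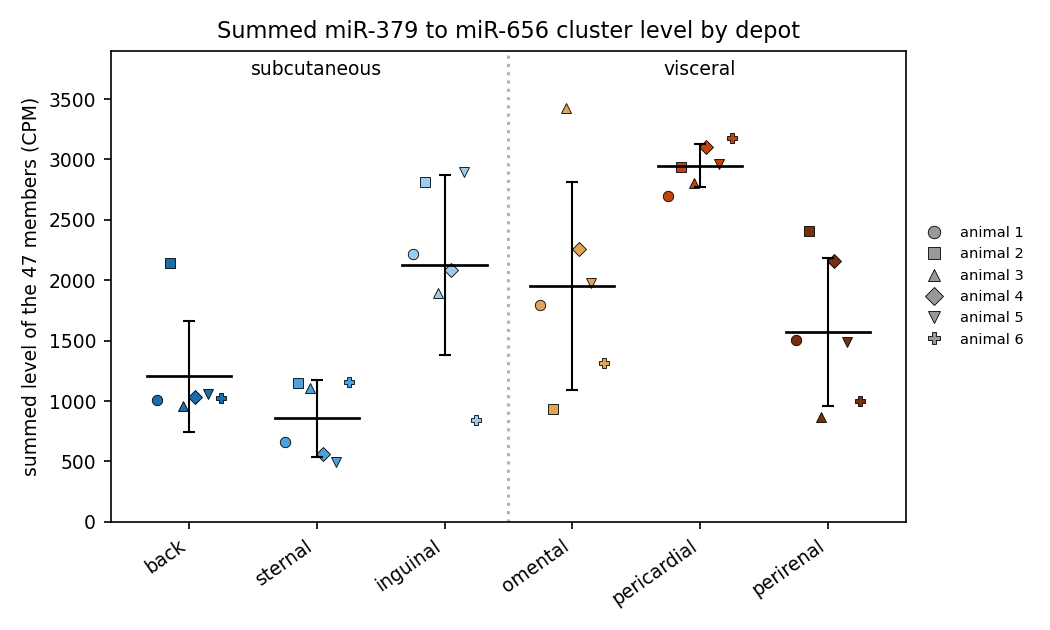
Summed level of the 47 members in each library (y axis, CPM, from 0) by depot (x axis), with 1 symbol per animal, a line for the depot mean and bars for 1 SD (n = 6). The pericardial libraries form a tight group at 2701 to 3179 CPM above all sternal libraries, and 1 back library (animal 2, 2145 CPM) stands apart from the other back libraries at 956 to 1059 CPM.

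The spread between animals was itself uneven. The coefficient of variation of the summed level was 6.03% in pericardial fat and between 35.04% and 44.2% in the other depots. Without miR-411a, the summed level varied by 14.2% in pericardial fat and by 27.9% to 59.4% elsewhere. The share of miR-411a in the cluster differed little between depots, with means of 70.2% in back to 75.2% in inguinal fat and single libraries from 57.6% to 81.8%. The remaining members followed the same order at the ends, from 246 ± 68.6 CPM in sternal to 817 ± 116 CPM in pericardial fat (SD, n = 6 each). The inguinal (animal 6), perirenal (animal 3) and omental library (animal 2) with the lowest summed level of their depot had leukocyte marker sums of 28125, 27363 and 20249 CPM. These sums were 3903 to 10600 CPM in pericardial fat, but also only 1994 to 7872 CPM in sternal fat. The link was not tested.

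In pericardial fat, 15 of the 32 tested members were higher than the mean of the other 5 depots and none was lower, at an adjusted p under 0.05 in edgeR's quasi-likelihood test (Benjamini-Hochberg over all 667 features). Of all features, 9.15% were called in this comparison in either direction, 6.75% as higher and 2.4% as lower. The median log2 difference of the tested members was 0.99, beside -0.01 for all features. 31 of 32 fitted differences were above 0, beside 49.3% of all features, and all 15 called members were higher in 6 of 6 animals. The counts of animals here and in the contrasts below rest on the libraries that gave the calls, so they are no separate support. The contrasts of each depot with the other 5 share libraries, so they are not independent of each other.

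The 5p arm of miR-411c showed the smallest p. In pericardial fat its lowest, median and highest levels were 81.9, 108 and 202 CPM, beside 17.6, 21.9 and 45.2 CPM in sternal fat. Back (24.5, 34.96 and 65.7 CPM), omental (18.1, 53.7 and 76.5 CPM) and inguinal fat (37.6, 45.9 and 129 CPM) lay between, and perirenal fat was at 20.6, 35.8 and 83.7 CPM. All pericardial libraries were thus above all sternal, back and omental ones, while 1 inguinal and 1 perirenal library, both from animal 2, reached into their range. The fitted difference was 1.47 ± 0.26 on the log2 scale (SE, edgeR's quasi-likelihood test, adjusted p = 2.07e-04).

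miR-381, which shares its seed with miR-300, had the largest pericardial difference on the log2 scale among members of at least 10 CPM. It was read at 41.0, 46.7 and 72.1 CPM in pericardial fat (lowest, median and highest) and at 4.54, 6.67 and 11.6 CPM in sternal fat, with no overlap. The other depots reached from 4.91 CPM in an inguinal to 48.7 CPM in another inguinal library, so that depot held both ends. The pericardial difference was 1.56 ± 0.30 (log2, SE, edgeR, adjusted p = 5.93e-04).

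miR-369-3p, known for binding AU-rich elements in the messenger RNA of tumour necrosis factor, had a lower level. Its pericardial libraries lay at 14.7, 20.6 and 31.4 CPM and its sternal ones at 2.65, 3.80 and 9.01 CPM, again without overlap. Single inguinal (25.9 CPM), omental (15.0 CPM) and perirenal (15.8 CPM) libraries entered the pericardial range. The fitted difference was 1.5005 ± 0.29 (log2, SE, edgeR, adjusted p = 5.99e-04).

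miR-411a, the bulk of the cluster, was read at 1944, 2155 and 2272 CPM in pericardial fat and at 334, 626 and 860 CPM in sternal fat. In back fat it was at 551, 745 and 1583 CPM, in inguinal fat at 611, 1604 and 2272 CPM, in omental fat at 646, 1475 and 2717 CPM and in perirenal fat at 655, 1116 and 1721 CPM. The pericardial libraries did not overlap with sternal, back or perirenal ones, but inguinal and omental libraries reached as high. Its pericardial difference of 0.99 ± 0.23 (log2, SE, edgeR, adjusted p = 0.00393) was smaller than those of miR-381 and miR-369-3p, and the gaps between members were not tested.

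miR-379 ran from 142 to 346 CPM in pericardial fat (median 259) and from 34.4 to 116 CPM in sternal fat (median 79.5), and these depots did not overlap. Its highest library of all was perirenal (354 CPM, animal 2). The pericardial difference was 1.09 ± 0.28 (log2, SE, edgeR, adjusted p = 0.00824). miR-376b, of a family whose precursors are known targets of adenosine-to-inosine editing, was at 22.3, 33.2 and 42.6 CPM in pericardial and at 2.38, 6.95 and 17.2 CPM in sternal fat, with a pericardial difference of 1.23 ± 0.29 (adjusted p = 0.00408). miR-411b, read at 3.29 CPM on average, was higher in pericardial fat by 1.29 ± 0.29 (adjusted p = 0.00321), and its pericardial (3.28 to 10.4 CPM) and sternal libraries (1.81 to 4.34 CPM) overlapped.

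**Figure D2:**
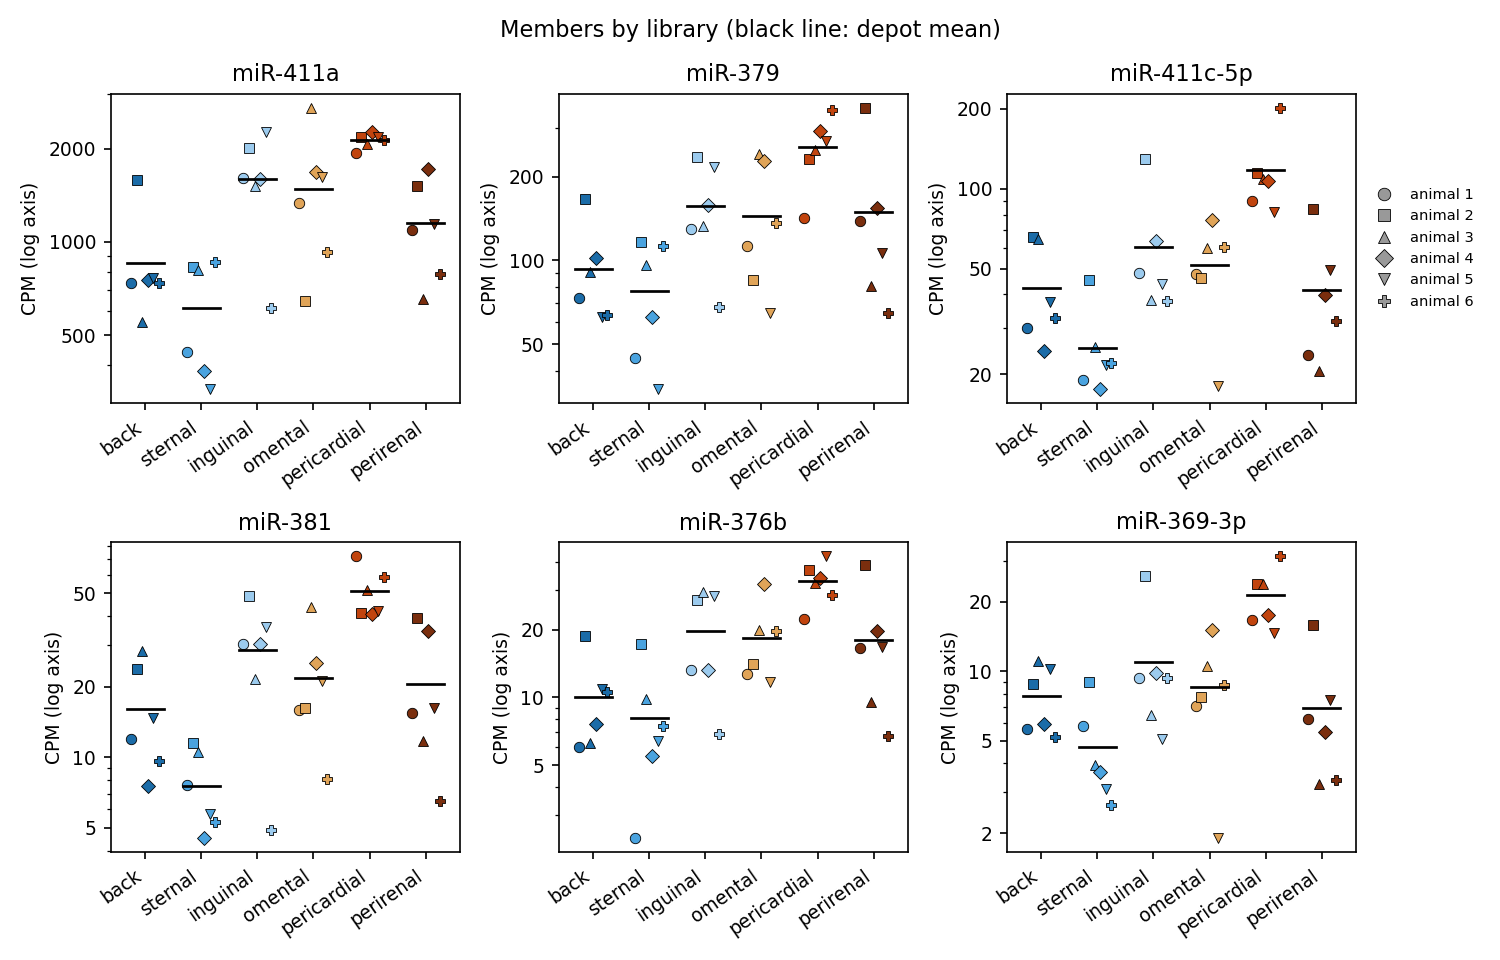
Level of 6 members in each library (y axes, CPM, log scale) by depot (x axes), with 1 symbol per animal and a line for the depot mean. In all 6 panels the pericardial libraries lie above all sternal libraries, while inguinal, omental and perirenal libraries spread over most of the range.

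The other called members were miR-411c-3p (1.42 ± 0.33), miR-380-3p (1.07 ± 0.26), miR-655 (1.82 ± 0.45), miR-487b (0.98 ± 0.26), miR-544a (1.16 ± 0.32), miR-376e (1.39 ± 0.40), miR-382 (1.03 ± 0.32) and miR-543 (0.99 ± 0.31, log2 differences with SE). The largest of them belonged to miR-655, which ran from 8.24 to 46.6 CPM over the pericardial libraries. miR-154b and miR-485, a regulator of synaptic proteins in neurons, were not called although they are among the 5 most abundant members. miR-154b was read at 43.6 to 142 CPM in pericardial and 20.0 to 48.6 CPM in sternal fat (0.73 ± 0.30, edgeR, adjusted p = 0.121), and miR-485 at 28.9 to 74.9 and 9.84 to 36.3 CPM (0.58 ± 0.31, adjusted p = 0.279). Both overlapped between the depots.

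The pericardial count was 9 without the pericardial library of animal 2 or of animal 3 and 6 without that of animal 6, and 9 among the libraries of letter B alone. miR-411c-5p, miR-381, miR-369-3p and miR-411c-3p kept the call in every refit, while in the 36 fits with 1 library left out it was lost in 32 for miR-543, 26 for miR-382 and 16 for miR-487b, and in 5 of 6 fits with 1 animal left out for miR-376e, miR-382 and miR-544a. Beside these counts, muscle markers (7 of 7 rows read) summed to 83.5 to 303 CPM in pericardial and 35.9 to 58.2 CPM in sternal fat without overlap, and heart miRNAs miR-208a and miR-208b reached at most 0.246 and 1.23 CPM in pericardial fat. Muscle sums reached 2949 CPM in back, 1296 in perirenal, 397 in omental and 133 CPM in inguinal fat. No muscle marker was called in pericardial fat. There miR-206 (1.09), miR-499 (0.80) and miR-133a (0.62) were fitted higher and miR-1 (-0.45), miR-133b (-0.41) and miR-208b (-0.25, log2 differences) lower. Epithelial and mesothelial markers (6 rows) summed to 5.17 to 506 CPM in pericardial and 5.42 to 26.5 CPM in sternal fat, and miR-200a (3.10), miR-200b (3.29) and miR-9-5p (2.48, log2 differences) of the marker lists were called higher in pericardial fat. Of the other neural rows, none called, miR-129-3p (-0.79), miR-129 (-0.745), miR-128 (-0.34), miR-137 (-0.15) and miR-138 (-0.01) were fitted lower. Neural miR-218 (0.60) and miR-124a (0.13) were fitted higher. In pericardial and sternal fat, erythroid markers summed to 24290 to 91490 and 8230 to 35030 CPM, and leukocyte markers to 3903 to 10600 and 1994 to 7872 CPM. Neural markers summed to 231 to 386 and 201 to 467 CPM there, and adipose markers to 11260 to 130100 and 13350 to 143400 CPM. The part of these cells in the result was not tested.

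In sternal fat, 8 of 32 tested members were lower than the mean of the other 5 depots and none was higher in edgeR's test, where 9.3% of all features were called in either direction, 3.75% as lower and 5.55% as higher. The median log2 difference was -0.82 for the tested members and -0.11 for all features. miR-381 (-1.75 ± 0.39, adjusted p = 0.00549) and miR-411a (-1.18 ± 0.27, adjusted p = 0.006) had the smallest p, followed by miR-411c-5p (-1.20 ± 0.31), miR-411c-3p (-1.57 ± 0.42), miR-376b (-1.18 ± 0.35), miR-487b (-0.9985 ± 0.31), miR-369-3p (-1.11 ± 0.36) and miR-543 (-1.16 ± 0.37). All of these but miR-487b were lower in 6 of 6 animals, and miR-487b was in 5 of 6.

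All 10 members of at least 10 CPM had a sternal difference below 0 with an unadjusted p under 0.05 in edgeR's test, and 6 of them were called. Of all 667 features, 56.4% had a difference below 0, and 158 had such a p in either direction. The summed level split the sternal libraries, with animals 1, 4 and 5 at 493 to 661 CPM and animals 2, 3 and 6 at 1110 to 1155 CPM. The upper 3 lay below the back library of animal 2 (2145 CPM) and above all other back libraries (956 to 1059 CPM). The count was 2 without animal 1, 1 without animal 4 and 2 without animal 5, and it was 4 with the library letter in the model and 2 to 9 with any 1 library left out. In those 36 fits miR-381 kept its call in all, while the call was lost in 31 for miR-369-3p, 28 for miR-543 and 27 for miR-487b. Of the marker lists, miR-138 (-2.27), miR-9-5p (-1.92) and miR-451 (-1.43) were lower and the stromal miR-214 (1.75) and miR-199b (1.46, log2 differences) higher in sternal fat. Without a call, neural miR-124a (0.27) and miR-137 (0.19) were fitted higher and stromal miR-143 (-0.15) and miR-145 (-0.14) lower. The part of these markers in the result was not tested.

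**Figure D3:**
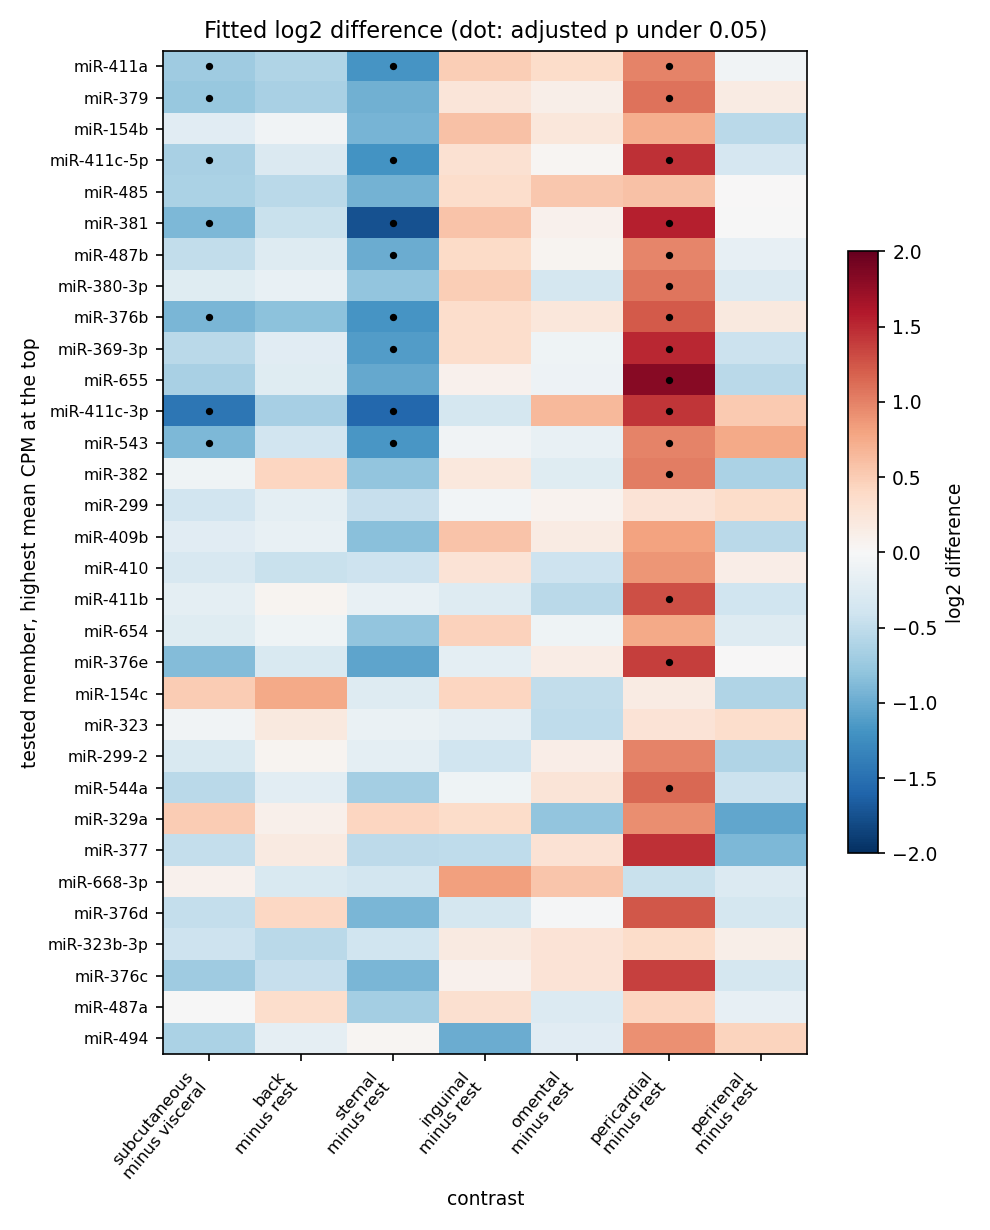
Fitted log2 differences (colour, from -2 to 2) of the 32 tested members (rows, highest mean CPM at the top) in 7 contrasts (columns), with a dot where the adjusted p was under 0.05. The sternal column holds 8 dots and the pericardial column 15, and the back, inguinal, omental and perirenal columns hold none.

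Subcutaneous fat as a class was lower than visceral fat in 7 of 32 tested members and higher in none in edgeR's test, beside 16.5% of all features called in either direction, 9.3% as lower and 7.2% as higher. The median difference was -0.48 for the tested members and -0.09 for all features, and 29 of 32 members were below 0, beside 54.6% of all features. The 3p arm of miR-411c had the largest difference, with 1.52, 4.66 and 12.6 CPM in subcutaneous libraries (lowest, median and highest) and 3.26, 13.5 and 28.3 CPM in visceral ones, which overlapped (-1.44 ± 0.28, edgeR, adjusted p = 5.43e-04, lower in 6 of 6 animals). miR-376b (-0.92 ± 0.24, adjusted p = 0.0084), miR-381 (-0.90 ± 0.25, adjusted p = 0.0141) and miR-379 (-0.76 ± 0.23, adjusted p = 0.0191) were also lower in 6 of 6 animals.

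miR-411a was at 334, 787 and 2272 CPM in subcutaneous and 646, 1649 and 2717 CPM in visceral libraries, which overlapped over most of their range (-0.71 ± 0.19, edgeR, adjusted p = 0.00889, lower in 5 of 6 animals). miR-543 (-0.90 ± 0.25) and miR-411c-5p (-0.65 ± 0.21, adjusted p = 0.0338, a call lost in 17 of 36 fits with 1 library left out) completed the called members. In the class comparison 1 member, miR-411c-3p, was called without the pericardial depot and also without the sternal depot, and 1 with counts summed per animal and class. No other depot was left out, and these fits held fewer libraries, so whether the drop was particular to these depots was not tested. The class count was 3 with the library letter in the model, 0 among letter B libraries and 1 without animal 4. Several markers were called in the same comparison. Epithelial miR-200a (-5.16), miR-200b (-5.42), miR-200c (-1.50), miR-141 (-2.003) and miR-429 (-4.57), leukocyte miR-142-3p (-2.51), miR-142-5p (-1.93) and miR-146a (-0.96), neural miR-9-5p (-2.27), miR-138 (-1.60) and miR-218 (-1.30) and muscle miR-499 (-0.73) were lower in subcutaneous fat. Other rows of these lists were fitted higher without a call. They were neural miR-137 (0.87), miR-124a (0.765), miR-128 (0.21) and miR-129-3p (0.06), muscle miR-208b (0.90) and miR-206 (0.41) and leukocyte miR-223 (0.45) and miR-342 (0.18). Stromal miR-214 (1.49), miR-199b (1.47) and miR-199a-5p (0.83, all log2 differences) were called higher. The summed levels of these lists overlapped between the classes: epithelial markers at 3.81 to 79.0 CPM in subcutaneous and 5.17 to 2816 CPM in visceral libraries, leukocyte markers at 1994 to 28130 and 3903 to 48300 CPM, neural markers at 170 to 478 and 231 to 664 CPM, muscle markers at 23.6 to 2949 and 50.8 to 1296 CPM and stromal markers at 22000 to 41160 and 8434 to 90490 CPM. Their part in the result was not tested.

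No member was called in back fat (2.25% of all features called), inguinal fat (0.3%), omental fat (1.5%) or perirenal fat (3.15%) against the other 5 depots in edgeR. Unadjusted p-values under 0.05 were found for 4 members in back, 1 in inguinal, 0 in omental and 1 in perirenal fat, beside 84, 46, 93 and 93 of all 667 features, and neither limma nor DESeq2 called a member there. The medians of the members were -0.22 in back, 0.26 in inguinal, 0.06 in omental and -0.26 in perirenal fat. In inguinal fat all 10 members of at least 10 CPM were fitted above 0 (0.25 to 0.58), beside 46.3% of all features. In back fat all 10 were below 0 (-0.82 to -0.06), beside 51.4%. These 10 members were correlated with each other, so their signs are not independent.

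Over all 6 depots, edgeR's F test called 11 of 32 members, beside 13.9% of all features. The smallest p-values were those of miR-411c-5p and miR-381 (adjusted p = 0.00145 each), miR-411a (0.00197), miR-411c-3p (0.00457), miR-369-3p (0.00488) and miR-376b (0.00696). The count was 6 without the back library of animal 1 or 4, the sternal one of animal 5 or the pericardial one of animal 4, 5 or 6. It was 7 without the back library of animal 5, the sternal one of animal 1 or 6 or the pericardial one of animal 3, and 4 to 12 with 1 animal left out. 8 of the 10 members of at least 10 CPM were called, and miR-154b (0.0785) and miR-485 (0.116) were not. Within the subcutaneous class no member was called (0.6% of all features), although all 10 of the abundant members, 12 of the 32 tested and 93 of all 667 features had an unadjusted p under 0.05, and the count was 1 with the animal as a block and in limma and 3 in DESeq2. Within the visceral class miR-411c-5p (0.0343), miR-411b (0.0406) and miR-369-3p (0.0406, adjusted p-values) were called, beside 1.95% of all features. That count was 6 with the animal as a block and fell to 0 in 28 of the 36 fits with 1 library left out.

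The pattern was shared by most members without being uniform. 28 of 32 tested members had their highest depot mean in pericardial fat, beside 20.7% of all tested features, and 22 their lowest in sternal fat, beside 28.8%. For 15 members every pericardial library was above every sternal one, which held for 5.7% of all features. In 24 members the pericardial library was the higher one in 6 of 6 animals, which was not counted over all features. The exceptions to the pericardial maximum were miR-154c, highest in back fat (3.58 CPM), miR-299 and miR-323, highest in perirenal fat, and miR-668-3p, highest in inguinal fat (1.298 CPM) and lowest in pericardial fat (0.617 CPM). These 4 averaged 0.835 to 3.75 CPM.

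The levels of abundant members were correlated over the libraries. The median Pearson correlation of log2 CPM between pairs was 0.75 among the 10 members of at least 10 CPM, 0.39 among the 22 rarer ones and 0.004 among all 667 features (36 libraries, which share 6 animals and the depth and scaling of each library). Against the mean of the other abundant members, miR-411a reached 0.91, miR-381 0.91, miR-487b 0.90 and miR-379 0.89, while miR-154b stayed at 0.68 and miR-485 at 0.69. miR-668-3p was at 0.09, and its counts were low.

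Of the features outside the cluster, those most similar to the mean pattern of its abundant members included its neighbours in the domain. miR-432 (r = 0.90), miR-127 (0.89) and miR-493 (0.83) held ranks 2, 3 and 6 among all features outside the list (Pearson correlation of log2 CPM over 36 libraries, with the pattern as mean centred log2 CPM). The first place went to a candidate locus with no miRNA name, NC_059176.1_40497 (r = 0.95, 1810 CPM on average), and NC_059176.1_40495 (0.84, 18800 CPM) was the fifth. 3 of the 8 most similar features carried this sequence prefix, which 13 tested loci shared with a median r of -0.09. The prefix was not matched to a chromosome here, nor the loci to a miRNA. The remaining ranks 4, 7 and 8 went to NC_059176.1_40486 (0.86, 2.4 CPM on average), a locus of another prefix (0.73) and miR-424-5p (0.70).

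**Figure D4:**
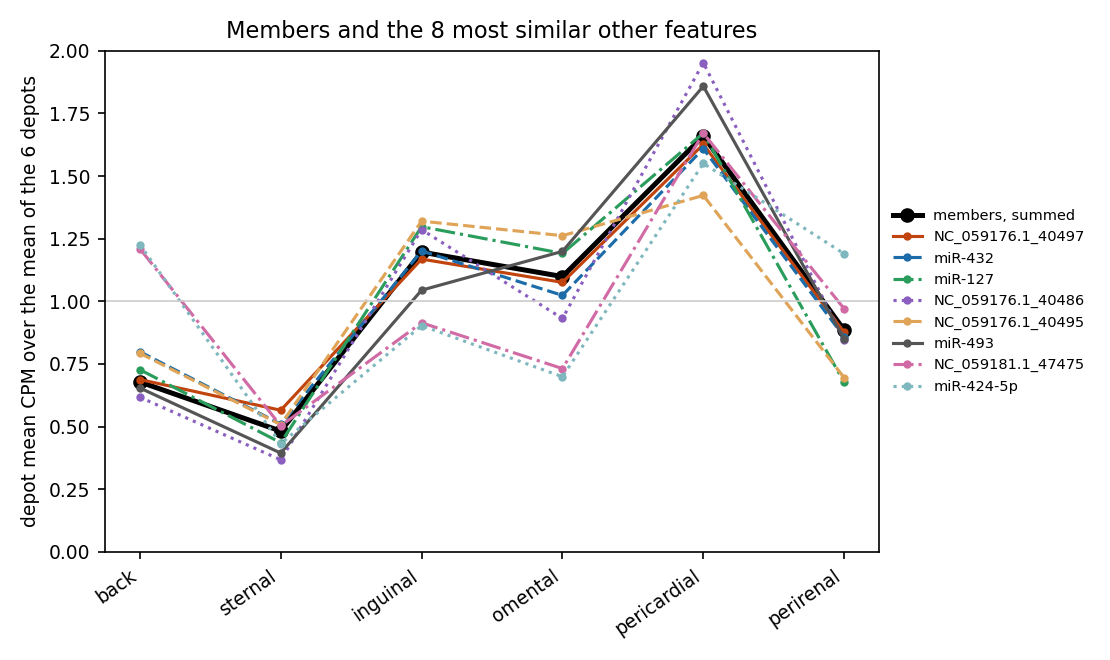
Depot means in CPM divided by the mean of the 6 depots (y axis) for the summed members and the 8 most similar other features (lines), by depot (x axis). Each line has its lowest point in sternal and its highest in pericardial fat, and 2 lines, miR-424-5p and a candidate locus, exceed 1 in back fat.

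miR-127, miR-432, miR-431, miR-433 and miR-136 are encoded antisense to RTL1, next to the cluster, and are known to target its transcript. 7 of the 10 neighbouring miRNAs listed could be tested. miR-127 was far more abundant than any member, with 4556, 12000 and 17110 CPM in sternal (lowest, median and highest) and 26350, 42800 and 52900 CPM in pericardial fat, which did not overlap. 4 of 7 neighbours were called higher in pericardial fat (miR-493, miR-127, miR-370 and miR-432, by 0.93 to 1.84 on the log2 scale), the same 4 lower in sternal fat, and 2 lower in subcutaneous fat, miR-370 (-2.01 ± 0.43, edgeR, adjusted p = 0.00143) and miR-493 (-0.94 ± 0.23, adjusted p = 0.00532). miR-136, miR-431 and miR-433 were not called in any of these 3 contrasts.

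The share of the 2 arms of a precursor does not follow from the level of the cluster. Both arms were members for 3 precursors, miR-411c, miR-380 and miR-369. Reads of miR-380 and miR-369 came almost wholly from the 3p arm, with 5p shares of 0% to 0.455% and 0% to 1.67% over the libraries. For miR-411c the 5p arm held 88.6% of both arms' counts in subcutaneous and 82.7% in visceral fat, on 208 to 3176 reads per library. The difference of 5.90 ± 3.97 percentage points (SD, n = 6 animals) was positive in 5 of 6 animals, and the exact two-sided sign-flip permutation test gave p = 0.0625 (adjusted p = 0.188 over 3 precursors, the smallest possible raw p being 0.0312). The 5p share ran from 77.7% to 94.0% in subcutaneous and from 64.7% to 92.3% in visceral libraries, so the classes overlapped.

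**Figure D5:**
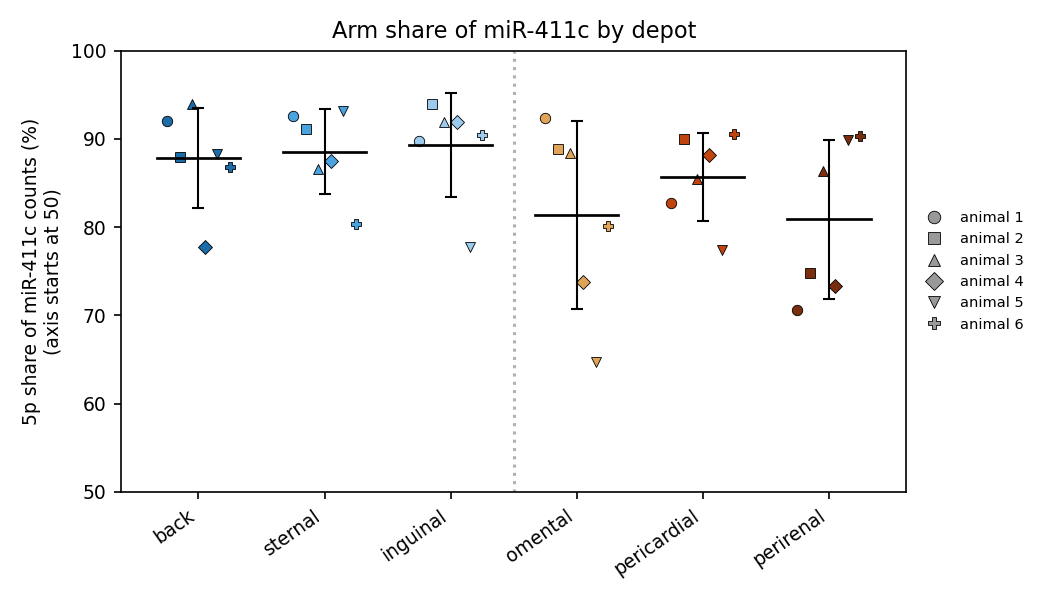
Share of the 5p arm among all miR-411c counts in each library (y axis, %, from 50) by depot (x axis), with 1 symbol per animal, a line for the depot mean and bars for 1 SD (n = 6). Depot means lie at 87.8% to 89.3% in the subcutaneous and 80.9% to 85.7% in the visceral depots, with overlapping libraries.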

How the data were processed

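Counted small RNA reads of 36 adipose libraries were analysed. The authors deposited whole-number read counts per miRNA, not normalized, and beside them RPM values, which matched each count rescaled by its library total to within 4.79e-06, as computed from the deposited table. A blank row held 0 counts. RNA was extracted with a lipid tissue kit and libraries were made with a TruSeq RNA kit, per the labels' protocols. The submitters' processing notes name DESeq2 1.24.0 without a role. The genome build, aligner and miRNA caller were not given in the sources used here.

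Counts were fitted in R 4.3.3 with edgeR 4.0.16 (TMM scaling, filterByExpr with a minimum count of 10, robust glmQLFit, 1 coefficient per depot, 30 residual degrees of freedom) on all features. Two-sided p-values were adjusted by Benjamini-Hochberg over the 667 features tested, with a threshold of 0.05. The SE is the size of the fitted log2 difference over the square root of F. CPM uses TMM-scaled totals, and log2 CPM a prior count of 2. Arm shares were compared by an exact sign-flip test over animals. The fits were tested on simulated counts.

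The rule for giving values covered the 6 members with the highest mean, the 5 of at least 10 CPM with the smallest F-test p and the 3 called members of at least 10 CPM with the largest difference per contrast and direction. It also covered every called member where at most 5 were called, the 8 most similar other features and the 3 most abundant neighbours. For some of these only part of the depots, or no level, is printed. Marker lists covered erythroid, leukocyte, muscle, endothelial, epithelial, neural, stromal and adipose miRNAs. Endothelial markers summed to 15020 to 35340 CPM and stromal ones to 8434 to 90490 CPM over all libraries. The members and lists were chosen with earlier results of these data known. Alternatives were RLE factors, library totals, no filter, a block for the animal, the letter of the library name, letter B alone, each animal left out, limma 3.58.1 on log2(RPM + 1), DESeq2 1.42.0 and sums per animal and class. Leaving out each library, the pericardial depot or the sternal depot was chosen after seeing the data.

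Per the labels each numbered animal was sampled at all depots, which pairs the libraries. The mean correlation of their deviations from depot means was 0.198 for the same animal (above 0.1 in 64 of 90 pairs) and -0.0392 for different animals. All pairs of libraries differed by more than sampling noise, with a chi-square per degree of freedom of at least 525.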

Additional observations from a re-analysis of the deposited data

Results flagged for a closer look

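Single libraries stood apart from the other 5 of their depot in 8 of 60 combinations of depot and level examined (the summed level and 9 members), by a gap beyond the 95% critical value of Dixon's test. Normal values pass it by chance in about 1 of 20 sets. The levels here were CPM without a log scale. The combinations were not independent, as miR-411a is most of the summed level and abundant members are correlated. The count of 8 can therefore not be set against that rate. The back library of animal 2 had a summed level of 2145 CPM, against 956 to 1059 CPM in the others, and 1583 CPM of miR-411a against 551 to 763 CPM. The same library held the highest muscle marker sum of all, 2949 CPM, and the link was not tested. The perirenal library of animal 2 had 353.8 CPM of miR-379 against 64.6 to 154 CPM, and 15.81 CPM of miR-369-3p against 3.26 to 7.53 CPM. The inguinal library of animal 2 had 129.4 CPM of miR-411c-5p against 37.6 to 63.6 CPM and 25.85 CPM of miR-369-3p against 5.07 to 9.80 CPM. For miR-411c-5p the sternal library of animal 2 (45.23 CPM against 17.6 to 25.3) and the pericardial library of animal 6 (202.3 CPM against 81.9 to 114) stood apart too. All 8 were high values, and 7 came from animal 2.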

How the results depend on the processing

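The 1521 refits of the single called members kept their direction in every case, and 333 of them lost the call. Counts of called members moved by more than 1.5 times as follows, and the cause was not tested. For subcutaneous against visceral fat the count of 7 was 12 with library totals alone, 13 in limma, 3 with the library letter, 0 in letter B libraries, 1 without the pericardial and 1 without the sternal depot, and 1 with counts summed per animal and class. For sternal fat the count of 8 was 3 without a filter, 4 with the letter and 2 in letter B. For pericardial fat 15 became 9 in letter B and 23 in limma, and for perirenal fat 0 became 1 in letter B. The F test over 6 depots gave 7 without a filter, 7 in letter B and 19 in limma. Within subcutaneous fat 0 became 2 with library totals, 1 in limma and 3 in DESeq2, and within visceral fat 3 became 0 without a filter and 1 in letter B.

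With the replicate block for the animal, the count within subcutaneous fat was 1 and within visceral fat 6, and elsewhere it was 8 for the class, 9 for sternal, 18 for pericardial and 14 over all depots. The block took away no call.

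With 1 animal left out the counts ran from 1 to 8 for the class, 1 to 8 for sternal, 6 to 18 for pericardial, 4 to 12 over 6 depots, 0 to 2 within subcutaneous and 0 to 2 within visceral fat. With 1 library left out they ran from 5 to 8, 2 to 9, 6 to 15, 6 to 12, 0 to 2 and 0 to 3. The sternal count fell to 2 without SSAT 4, 3 without SSAT 1, 4 without BSAT 5, SSAT 5, SSAT 6, IAT 2, PCAT 5 or PRAT 4, and 5 without BSAT 1, 2, 3 or 6, IAT 1 or 4, OAT 1 or 4, PCAT 1, 2, 3, 4 or 6, or PRAT 1 or 5. The count over 6 depots fell to 6 without BSAT 1, BSAT 4, SSAT 5, PCAT 4, PCAT 5 or PCAT 6 and to 7 without BSAT 5, SSAT 1, SSAT 6 or PCAT 3. Within subcutaneous fat it was 2 without SSAT 2, IAT 6, OAT 6 or PRAT 6 and 1 without OAT 2. Within visceral fat it moved to 0 or 1 without any library other than SSAT 4, IAT 2, OAT 4, OAT 5 or PRAT 2. The 5p share difference of miR-411c was 5.16 to 7.31 points with 1 animal left out, that of miR-380 -0.0201 to 0.0376 and that of miR-369 -0.0855 to 0.0418. With at least 100 reads only miR-411c remained (adjusted p = 0.0625, exact permutation test). Library totals alone moved the median of all features by over 0.1, from -0.09 to -0.29 for the class, from -0.11 to -0.33 in sternal and from -0.01 to 0.13 in pericardial fat, and members' medians became -0.64, -1.04 and 1.14. Rare members rest on few reads: the untested ones had at most 35 in any library.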

Other observations

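The ratio of miR-655 to miR-485 in CPM, 1 pair chosen after seeing the data for its spread, ran from 0.00231 in the omental library of animal 5 (0.166 and 71.8 CPM, the first on 2 reads) to 1.35 in the pericardial library of animal 2 (38.9 and 28.9 CPM). Within pericardial fat it ran from 0.129 to 1.35, within sternal fat from 0.0655 to 0.873 and within back fat from 0.122 to 1.08.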
